A study of Canis lupus familiaris with 3 samples.

Results

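Growth factors are secreted or membrane-bound proteins that bind receptor tyrosine kinases, and binding brings the receptors together so that they phosphorylate each other and recruit adaptors that pass the signal to Ras and phosphoinositide 3-kinase. In kidney epithelia these pathways govern growth, tubule formation and cell scattering. MDCK cells, a dog kidney epithelial line, are the classic test cells for the scattering activity of HGF, the ligand of the receptor MET. The genes described here are the 79 genes, of 5508 named genes tested, whose annotated symbol matches a set of growth factor and receptor families. The families are PDGF, FGF, IGF, VEGFB, VEGFC and VEGFD, angiopoietin, EGF, neuregulin, ERBB, HGF, MET, MST1, Eph and ephrin. The others are KIT, FLT, KDR, AXL, TYRO3, GAS6, DDR, INSR, neurotrophin receptor, TEK, RET and ROR. VEGFA was not part of the rule. The 79 genes were chosen by symbol, with earlier results of these data known, and had a value on all 3 arrays. The rule matched 86 genes, and 7 of them had no spot with a value on every array.

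The tested cells were MDCK transfectants carrying E47, a product of the TCF3 gene and a transcription factor of the basic helix-loop-helix class, and the control cells were MDCK-CMV cells. Both were grown in the same serum-containing medium. The labels do not say whether the transfectants were 1 clone or a pool. Amplified RNA of both was hybridised together, in different dyes, to arrays of human cDNA clones. Extraction 1 of E47 RNA was hybridised once, with E47 in Cy5. Extraction 2 was used on both other arrays, with E47 in Cy3 on the first and in Cy5 on the second, which makes a dye swap. The swap was averaged, so n = 2 extractions, and nothing in the labels says that these came from separate cultures.

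Each value is a log2 ratio of E47 over control as deposited. That direction is likely and not stated: every sample lists the E47 cells as its first channel, and CDH1, the gene of E-cadherin that the series title names as repressed by E47, had a ratio of −3.59. The logarithm was read as base 2, and folds would be larger if it were natural. A ratio carries no level, so whether a gene was expressed in these cells at all was not measured here. The arrays gave values for 25537 (extraction 1, Cy5), 25282 (extraction 2, Cy3) and 24771 (extraction 2, Cy5) of 27648 spots, and precision is limited by there being only 3 arrays. Over all spots the Cy5 arrays of the different extractions correlated more closely (Pearson r = 0.765) than the dye swap of extraction 2 did (r = 0.654). TCF3 itself had a ratio of −0.29 (adjusted p = 0.118), and since it is not known whether its clones overlap the introduced cDNA, this checks nothing. Among markers, all 8 measured of 11 listed epithelial genes fell in E47 cells, by log2 ratios between −3.59 and −0.92, and 4 of 7 measured mesenchymal genes rose and none fell. None of 4 measured endothelial markers passed the limma test, 2 of which, KDR and TEK, are among the 79 genes, and 1 of the 4 had an unadjusted p under 0.05. Whether the growth factor genes moved with the shift in epithelial markers was not tested.

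Most of the 79 genes differed little between E47 and control cells, and a few stood far out. Of the 79, 4 rose and 3 fell at an adjusted p under 0.05 in limma, which is 8.86%, against 9.19% of all named genes. The 7 genes were PDGFC, EREG, FGFR4 and IGFBP7, which were higher, and EFNB1, MST1R and FGFBP1, which were lower. A share this near the background is no result about the group as a whole. The background was 5.34% for higher and 3.85% for lower genes. The median log2 ratio of the 79 genes was −0.05, against −0.02 over all named genes, and 75 of the 79 lay within 2-fold of no difference. At an unadjusted p under 0.05 there were 26 of 79 genes, against 35.6% of all named genes. The count of 7 depended on the dye swap: with extraction 2 read from its Cy3 array alone it was 1 gene, EREG (1.27%), and with its Cy5 array alone it was 13 (16.5%). The share of all named genes moved with it, to 1.98% and 16.7%. Each p-value rests on a variance that limma draws mostly from all features (2.71 prior degrees of freedom) and only in part from the difference between the 2 extractions (1 residual degree of freedom). Genes whose extractions nearly coincided, such as EREG and FGFR4, therefore share an SE of 0.083. Whether the same control RNA was used on every array is not stated, so how far the p-values include the spread of the control is not known.

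**Figure D1:**
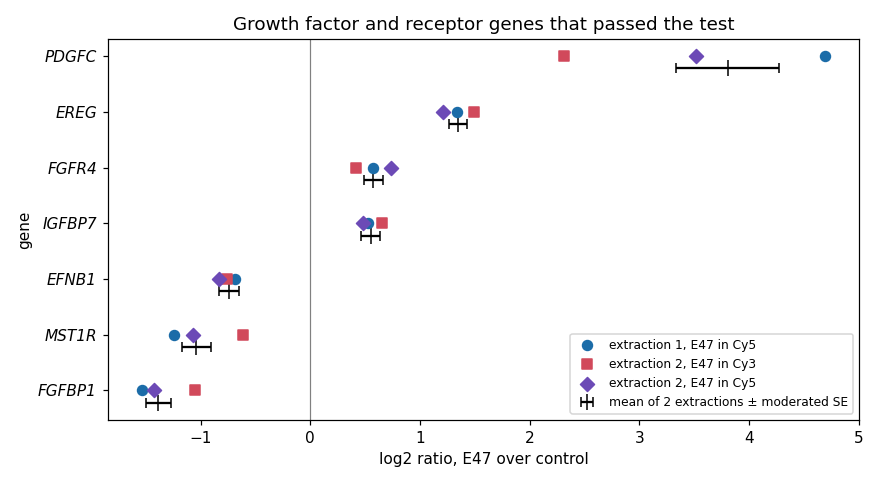
Log2 ratio of E47 over control for the 7 genes that passed the test in limma (adjusted p under 0.05). Points are the 3 arrays, and the black bar is the mean of 2 extractions with its moderated SE. PDGFC lies far to the right, with arrays between 2.32 and 4.70, and no gene has arrays on both sides of 0.

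By role, 2 of 31 ligands rose and 1 fell, 1 of 28 receptors rose and 1 fell, and 1 of 7 binding proteins rose and 1 fell. That is 9.68% of ligands, 7.14% of receptors and 28.6% of the few binding proteins, beside the background of 9.19%. Of the 79, 20 genes were above 0 on every array and 29 below, against 30.6% and 32.8% of all named genes, and the share with the same sign on every array was 62.0%, against 63.3%. At least 2-fold the same way on every array were 3 genes, PDGFC, EREG and FGFBP1, where the background was 2.21%. The symbol rule also took in 7 genes whose products were classed as neither growth factors, their receptors nor their binding proteins, and none of these passed the test, 2 of them at an unadjusted p under 0.05. They are the RNA-binding proteins IGF2BP1 and IGF2BP2, the nuclear receptors RORA and RORB, the EGF-repeat proteins EGFL7 and EGFLAM, and EGFEM1P, a pseudogene in human. RORA, at 0.60 with an adjusted p of 0.0661, and EGFEM1P, at 0.55 with an adjusted p of 0.0515, had the highest ratios among them, and passed in 1 and 3 of 9 alternatives. The other 5 lay between −0.20 and 0.14. Not counted among these 7 were the intracellular FGFs FGF12 and FGF13 and the ligand-like or receptor-like proteins ANGPTL7, IGFL2 and PDGFRL.

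**Figure D2:**
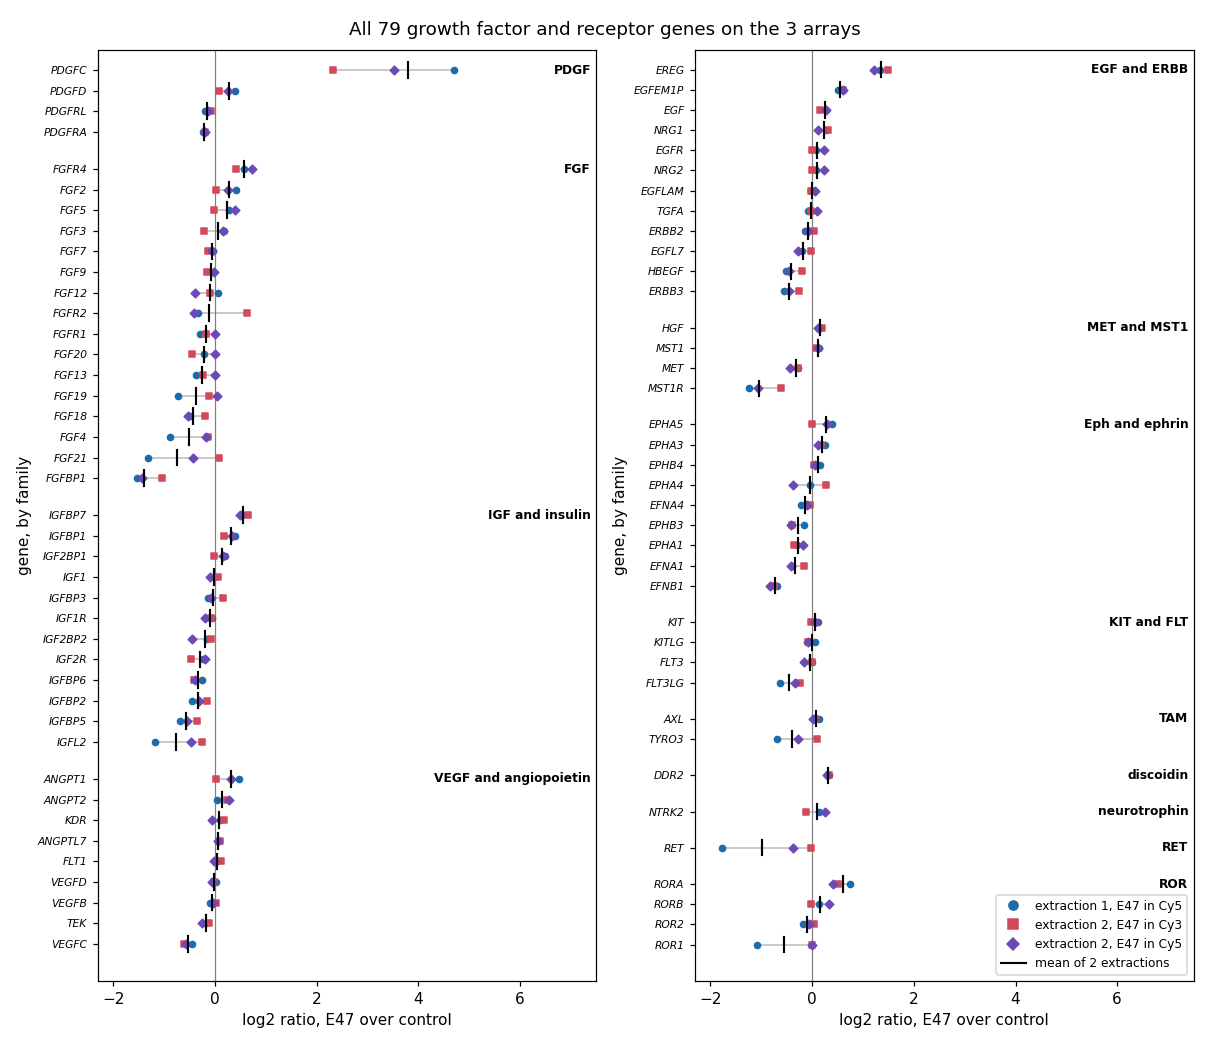
Log2 ratio of E47 over control for all 79 genes, ordered by family. Points are the 3 arrays, grey lines their range and black bars the mean of 2 extractions. Most genes cluster near 0, while PDGFC, EREG and FGFBP1 lie beyond 2-fold on every array, and RET, FGF21, ROR1 and IGFL2 have 1 array, that of extraction 1, far below the others.

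The PDGF family held the highest ratio of all 79 genes and the second highest of all 5508 named genes, that of PDGFC. PDGFC is a secreted ligand that is cut free of its CUB domain before it activates PDGF receptors. Its log2 ratio was 4.70 on the array of extraction 1, 2.32 on the Cy3 array of extraction 2 and 3.52 on its Cy5 array. All 3 arrays lay far above 0, but they differed from each other by more than those of any other of the 79 genes. The mean was 3.81 ± 1.26 (SD, n = 2 extractions), a 14.0-fold higher value for E47 cells, with a moderated SE of 0.47 and an adjusted p of 0.0349. Its single clone was spotted in duplicate, and the duplicate spots gave means of 3.91 and 3.71. PDGFC lost its call when the Cy5 array of extraction 2 was left out, at an adjusted p of 0.0918, and with robust eBayes, at 0.0812. Over 9 alternatives its adjusted p ran from 0.0176 to 0.0918 and its log2 ratio from 3.21 to 4.11.

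The other genes of that family did not pass. PDGFD, the related CUB-domain ligand, had 0.40, 0.08 and 0.25 in the same array order, with an adjusted p of 0.163. PDGFRA, the receptor that PDGFC dimers bind, had −0.23, −0.19 and −0.19. Its mean of −0.21 ± 0.08 (moderated SE of limma, n = 2 extractions, which the ± of later values also denotes) had an adjusted p of 0.186. PDGFRL, a receptor-like protein without a kinase domain, was at −0.15. As means over spots, ligand and receptor thus stood on opposite sides of 0 on all 3 arrays, with only the ligand past the test. PDGFRA was measured by 4 spots of 1 clone, which ran from −0.81 to 0.14 on the array of extraction 1. Below 0 on every array were 32.8% of all named genes.

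In the EGF family, EREG (epiregulin), a ligand of EGFR and ERBB4 that is released from the membrane by proteolysis, rose. Its arrays gave 1.34 for extraction 1, and 1.497 (Cy3) and 1.21 (Cy5) for extraction 2. The 3 values lay close together, and the extractions differed by an SD of 0.01. The mean was 1.34 ± 0.08, or 2.54-fold higher, with an adjusted p of 0.0194. EREG was measured by 2 spots of 1 clone, which gave 1.32 and 1.36. It kept its call in 8 of 9 alternatives, where its adjusted p ran from 0.0075 to 0.0560, and lost it with scaled arrays.

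No other EGF family ligand or receptor passed. Of the 12 genes placed in the family by symbol, 6 had an unadjusted p under 0.05 in limma, EREG and EGFEM1P among them. The same count was 7 of 12 for the IGF family and 3 of 16 for the FGF family, against 35.6% of all named genes. HBEGF, a heparin-binding ligand of EGFR, pointed the other way from EREG at −0.42, with an adjusted p of 0.0882 and all arrays below 0, and passed in 2 of 9 alternatives (0.0450 to 0.314). EGF at 0.24, NRG1 at 0.24, NRG2 at 0.09 and TGFA at −0.03 had adjusted p-values between 0.152 and 0.845. The receptor EGFR was at 0.09 and ERBB2, the partner receptor that binds no ligand, at −0.09, with arrays on both sides of 0 for each. ERBB3, the neuregulin receptor with an impaired kinase, was the lowest of the family at −0.46 ± 0.10, with arrays at −0.56, −0.26 and −0.45 and an adjusted p of 0.0804. It passed with extraction 2 read from its Cy5 array alone, at 0.0468, and when named genes were tested alone, at 0.0404, within a range of 0.0404 to 0.253 over 9 alternatives.

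In the FGF family 1 of 16 genes rose and 1 fell, which is 12.5% against 9.19% of all named genes. The median log2 ratio was −0.15, against −0.02 over all named genes. The lowest ratio of all 79 genes was that of FGFBP1, a secreted protein that binds FGFs held in the matrix and releases them. Its arrays gave −1.54, −1.05 and −1.43. The mean was −1.39 ± 0.11, or 2.62-fold lower in E47 cells (adjusted p = 0.0214). It was measured by 6 spots of 2 clones, which gave −1.27 and −1.62. Both clones passed the test when each was fitted as its own feature, at adjusted p-values of 0.0386 and 0.0179. FGFBP1 lost its call, at 0.0584, when the Cy5 array of extraction 2 was left out, and kept it in the other 8 of 9 alternatives, down to 0.0095.

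FGFR4, an FGF receptor of epithelia and liver, was the family's highest at 0.58 ± 0.08 (1.49-fold) with an adjusted p of 0.0444. Its arrays gave 0.57, 0.42 and 0.74, all above 0. Behind this mean stood clones that disagreed. The first clone gave 1.34, 1.21 and 1.34 and passed on its own, with a mean of 1.31 ± 0.09 and an adjusted p of 0.0177. The second gave −0.19, −0.37 and 0.14, with a mean of −0.15. FGFR4 lost its call in 3 of 9 alternatives, where adjusted p ran from 0.0191 to 0.162.

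The other FGF receptors and the ligands did not pass. FGFR1 was at −0.18. FGFR2, whose splice forms separate epithelial from mesenchymal FGF responses, gave −0.33, 0.63 and −0.42, so that the dye swap of the same RNA differed in sign. This came from 1 of the 2 spot pairs of its single clone, which gave −0.89 and −0.94 for extraction 1, 0.94 and 0.92 (Cy3) and −0.91 and −0.92 (Cy5). The other pair lay above 0 on all 3 arrays, between 0.04 and 0.36. The mean gap of −1.05 between its Cy5 and Cy3 arrays was exceeded only by the gap of PDGFC, at 1.20. With 1 clone, its splice forms were not told apart. Of the ligands, FGF2, FGF5 and FGF3 had means above 0, at 0.28, 0.23 and 0.07. The Cy3 array was below 0 for FGF5, at −0.009, and for FGF3, at −0.22. FGF7, the keratinocyte growth factor, was at −0.07 with all arrays between −0.13 and −0.04. FGF9 and FGF20 were at −0.07 and −0.22, and FGF18 at −0.43 with an adjusted p of 0.0780, past the threshold in 2 of 9 alternatives (0.0373 to 0.312). The clones of FGF18 had means of −0.52 and −0.06, the latter from 1 spot. Left-out spots of that second clone gave −0.24, 0.32 and 0.21 on the Cy3 array. The intracellular FGFs FGF12 and FGF13, which act on sodium channels rather than on FGF receptors, were at −0.09 and −0.25.

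FGF21, FGF4 and FGF19 had means of −0.75, −0.51 and −0.38 that came mostly from the array of extraction 1. FGF21, a circulating metabolic regulator, gave −1.32 on that array, against 0.08 and −0.43 in extraction 2. FGF4 was measured by a single spot. FGF19 was measured by 3 spots of 2 clones, and its clones had means of 0.20 and −1.53. The lower clone gave −2.76 on the array of extraction 1 and −0.40 and −0.22 in extraction 2. Further spots of the lower clone that lacked a value on the Cy5 array of extraction 2 showed the same pattern, the lowest with −4.01 on the array of extraction 1 and −0.20 on the Cy3 array. None of the 3 genes passed, with adjusted p-values between 0.184 and 0.257.

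In the IGF family, binding proteins carry IGFs in blood and tissue fluid and set how much reaches the receptor. IGFBP7, a low-affinity relative also known as a basement membrane and vessel protein, rose to 0.55 ± 0.08 (1.46-fold), with an adjusted p of 0.0486. Its arrays gave 0.53, 0.65 and 0.48. As with FGFR4, its clones disagreed: one had a mean of 1.18, with an adjusted p of 0.0188 as its own feature, and the other a mean of −0.09. The call was lost in 5 of 9 alternatives, where adjusted p ran from 0.0212 to 0.114.

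IGFBP5 lay on the other side at −0.56 ± 0.10, with arrays at −0.68, −0.36 and −0.55, and did not pass, at an adjusted p of 0.0628. It passed in 3 of 9 alternatives, over a range from 0.0303 to 0.188. Its 10 spots belonged to 3 clones, with means of 0.11, −0.58 and −1.18, and the lowest clone passed on its own, at 0.0383. Further spots of that clone, which lacked a value on the Cy3 array and were left out, gave 0.10 and 0.11 on the array of extraction 1, where the spots that were kept averaged −0.92. IGFBP2 and IGFBP6 were also below 0 on every array, at −0.34 and −0.33, IGFBP1 was above 0 on every array, at 0.32, and IGFBP3 was at −0.04. The binding proteins other than FGFBP1 thus ran in both directions, and of these 6 only IGFBP7 passed.

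IGF1, the ligand, was at −0.01, and its 3 clones lay between −0.21 and 0.25. IGF1R, its receptor, was at −0.09 over 4 clones and 9 spots, with each array between −0.19 and −0.06. IGF2R, which binds IGF2 and mannose 6-phosphate and carries them to lysosomes, was at −0.29 with an adjusted p of 0.126. IGFL2, an IGF-like protein whose symbol the dog gene table does not hold, was the lowest of the family at −0.77, with −1.17 on the array of extraction 1 and −0.25 and −0.47 in extraction 2, and did not pass at an adjusted p of 0.124.

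Among the scatter factor receptors, MST1R fell. It encodes RON, the receptor for macrophage-stimulating protein and a close relative of MET. Its arrays gave −1.24 for extraction 1, and −0.61 (Cy3) and −1.07 (Cy5) for extraction 2. The mean was −1.04 ± 0.13, or 2.06-fold lower in E47 cells (adjusted p = 0.0369). Its clones differed by 2.02, more than those of any other of the 24 genes with several clones. The clone with 4 spots gave −2.03, −1.14 and −1.65 and passed on its own, with a mean of −1.71 ± 0.18 and an adjusted p of 0.0278, while the clone with 2 spots gave 0.34, 0.44 and 0.11. The gene lost its call in 4 of 9 alternatives, where adjusted p ran from 0.0176 to 0.124.

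MET itself was at −0.32 ± 0.09, with all arrays between −0.43 and −0.27, and did not pass, at an adjusted p of 0.110. The ligands HGF, at 0.16, and MST1, at 0.11, had all arrays above 0 and adjusted p-values of 0.267 and 0.395. As means over spots, both receptors of the family had arrays below 0 and both ligands arrays above 0, with only MST1R past the test. Of all named genes, 32.8% were below 0 on every array and 30.6% above. Single clones did not all follow: the MST1R clone with 2 spots was above 0 on every array. A clone of HGF gave −0.12 on the Cy5 array of extraction 2, and a clone of MST1 gave −0.15 on its Cy3 array.

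Ephrins are membrane-bound ligands that signal between touching cells through Eph receptors. EFNB1, a transmembrane ephrin, was 1.67-fold lower in E47 cells, at −0.74 ± 0.09 (adjusted p = 0.0331). Its arrays lay close together at −0.69, −0.75 and −0.83, and both spots of its single clone gave −0.74. It lost its call with scaled arrays, at 0.0688, and when extraction 2 was read from its Cy3 array alone, at 0.0797, within a range of 0.0139 to 0.0797 over 9 alternatives.

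The ephrins EFNA1 and EFNA4, tethered by a lipid anchor, were at −0.34 and −0.14 and below 0 on every array, so that all 3 ephrins measured had negative ratios, of which 1 passed. EFNA4 rested on 1 spot, with an adjusted p of 0.331. Of all 5508 named genes, 2888 had a mean below 0, and 32.8% were below 0 on every array. The 6 Eph receptors measured ran from −0.28 to 0.26 and none passed, with 1 of them, EPHA1, at an unadjusted p under 0.05. EPHA1 and EPHB3 were the lowest, both at −0.28 with all arrays below 0. EPHA5 was the highest at 0.26, and EPHB4 and EPHA3 were at 0.11 and 0.20. EPHA4 gave −0.04, 0.27 and −0.38, and its 2 clones were at 0.21 and −0.58.

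No gene of the VEGF and angiopoietin family passed among 9 measured, 1 of them, VEGFC, at an unadjusted p under 0.05. VEGFA was not among the 9, because the symbol rule did not include it. VEGFC, a ligand for lymphatic vessels, was the lowest at −0.52 ± 0.09, with arrays at −0.45, −0.61 and −0.56 and an adjusted p of 0.0590. It passed in 3 of 9 alternatives, over a range from 0.0275 to 0.143. ANGPT1, which activates the receptor TEK, was the highest at 0.33, with 0.48, 0.03 and 0.32. ANGPT2, its antagonist in many settings, was at 0.15, and VEGFB, VEGFD and ANGPTL7 were at −0.05, −0.01 and 0.07. The endothelial receptors FLT1, KDR and TEK were at 0.04, 0.08 and −0.17.

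The remaining receptor families held no gene that passed. DDR2, a receptor tyrosine kinase for fibrillar collagen, was at 0.32 ± 0.08, with arrays at 0.33, 0.34 and 0.29 and an adjusted p of 0.105. Its arrays were close only as a mean over its clones, which gave 0.10 and 0.53. The higher clone of DDR2 had arrays at 0.63, 0.36 and 0.52, and the lower at 0.025, 0.31 and 0.05. AXL, a TAM receptor often studied in mesenchymal cells, was at 0.08, and its relative TYRO3 was at −0.39, with −0.69 in extraction 1 and −0.09 in extraction 2. For TYRO3, 1 of 4 spots gave −1.74 on the array of extraction 1, where its duplicate gave −0.22, and the mean was −0.25 with the median over spots and −0.19 with a dye term. KIT was at 0.06 and its ligand KITLG at −0.01, and FLT3 was at −0.05 and its ligand FLT3LG at −0.45. NTRK2, a neurotrophin receptor, was at 0.10, with its Cy3 array at −0.13.

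RET, the GDNF family receptor of the ureteric bud, and ROR1, a Wnt5a-binding receptor, had low means that came from 1 array. RET gave −1.77 on the array of extraction 1, against −0.03 and −0.37 in extraction 2. Its mean of −0.98 ± 1.11 (SD, n = 2) did not pass, at an adjusted p of 0.199, and it rested on a single spot, with 5 further spots left out. ROR1 gave −1.09 on that array, against −0.0019 (Cy3) and 0.0003 (Cy5) in extraction 2, and had an adjusted p of 0.273. ROR2 was at −0.10. In all, 4 of the 79 genes (RET, ROR1, FGF21 and IGFL2) differed by at least 2-fold on the array of extraction 1 while both arrays of extraction 2 stayed within 2-fold. All 4 were below 0 there. The share was 2.40% of all named genes.

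**Figure D3:**
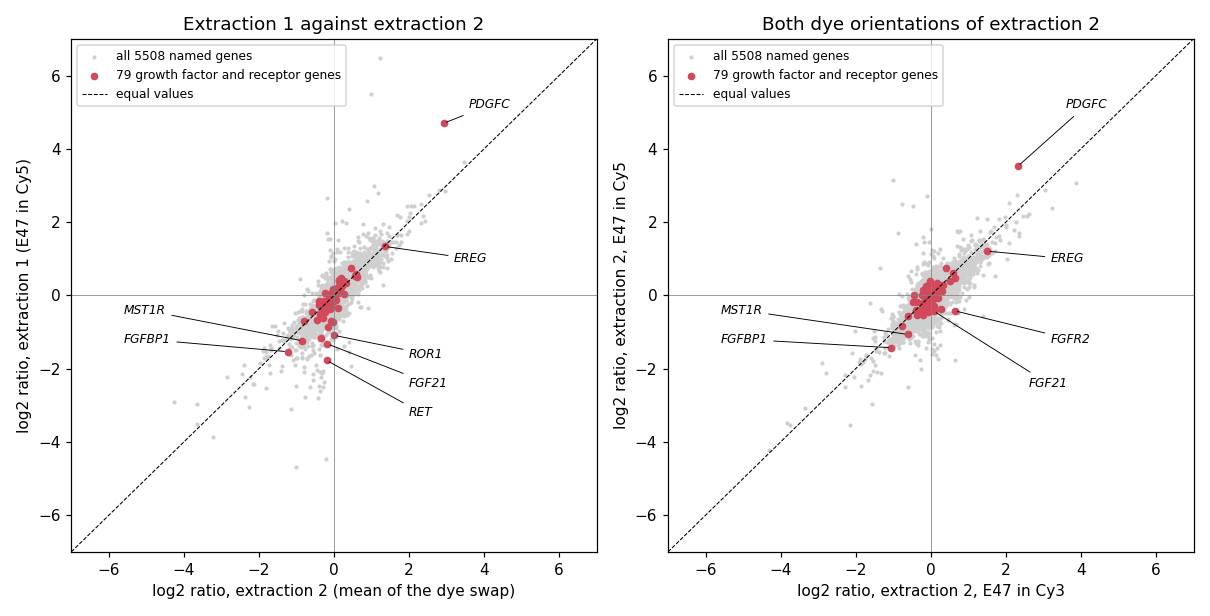
Left, log2 ratio of extraction 1 (E47 in Cy5) against that of extraction 2 (mean of the dye swap), and right, the Cy5 array of extraction 2 against its Cy3 array, for the 79 genes (red) and all 5508 named genes (grey), with the line of equal values dashed. RET, FGF21 and ROR1 lie below the line in the left panel, and FGFR2 has opposite signs in the right panel.

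The arrays spread the 79 genes to different extents. The SD of the log2 ratio over the 79 genes was 0.74 on the array of extraction 1, 0.42 on the Cy3 array and 0.56 on the Cy5 array of extraction 2, against 0.55, 0.43 and 0.48 over all named genes. Without PDGFC, left out after its value was seen, the SDs over the other 78 genes were 0.51, 0.33 and 0.38. The SDs over all named genes kept every gene, PDGFC included, so they are no like comparison for these. On the 3 arrays 8, 3 and 4 of the 79 genes differed by at least 2-fold, and 6.39%, 4.05% and 4.76% of all named genes did. For 27 of the 79 genes the dye swap of extraction 2 gave opposite signs, against 28.6% of all named genes. Extraction 1 was hybridised in 1 dye only, and its counterpart in the same dye is the Cy5 array of extraction 2. On these Cy5 arrays ROR1 gave −1.09 and 0.0003, RET −1.77 and −0.37, FGF21 −1.32 and −0.43, and IGFL2 −1.17 and −0.47. The Cy5 array minus the Cy3 array of extraction 2 was 0.0022 for ROR1, −0.34 for RET, −0.51 for FGF21 and −0.22 for IGFL2. What dye and extraction each contributed was not tested.

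Clones of the same gene were a further source of spread. Of the 79 genes, 24 were measured by several clones, and in 14 of these the clones had means of opposite sign, among them MST1R, FGFR4 and IGFBP7. Some of the 14 had clones near 0, such as ERBB2 at −0.135 and 0.0038. The share with opposite signs among all named genes was not computed. The median gap between the lowest and the highest clone was 0.38. When every clone was fitted as its own feature, a comparison added after these disagreements were seen, 11 of 109 clones passed (5 higher and 6 lower), or 10.1%, against 10.8% of the clones of all named genes. These 11 clones belonged to 10 genes, the 7 genes above and ERBB3, IGFBP5 and EGFEM1P. Human clones can also bind related dog transcripts, so members of these families may not be fully separated, and 76 of the 79 symbols are in the dog gene table.

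**Figure D4:**
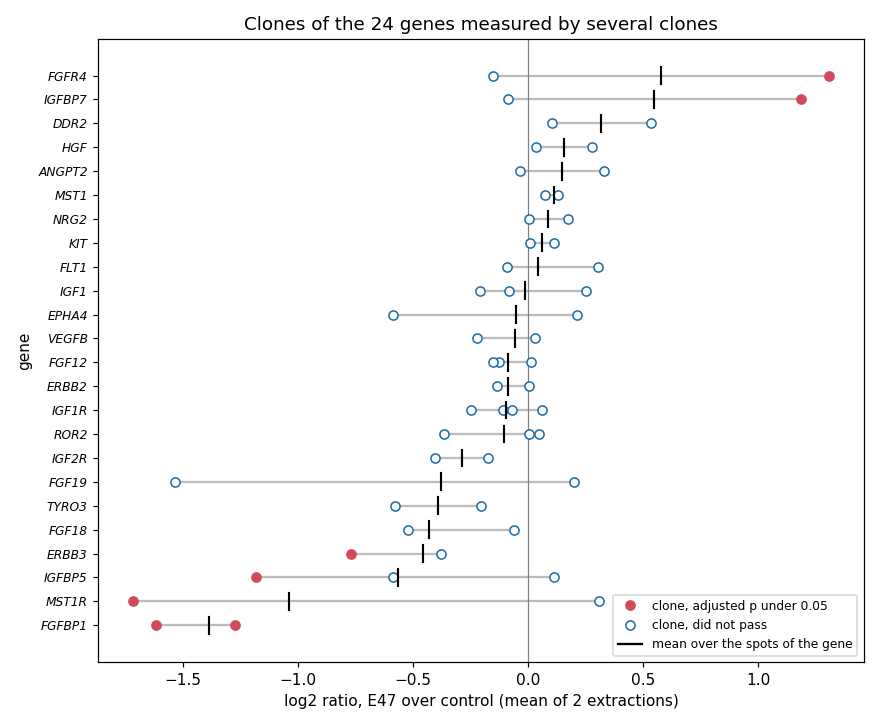
Log2 ratio of E47 over control, mean of 2 extractions, for each clone of the 24 genes measured by several clones. Filled points passed the test as their own feature, open points did not, and black bars are the mean over the spots of the gene. FGFR4, IGFBP7 and MST1R each have 1 clone that passed and 1 on the other side of 0, whereas both clones of FGFBP1 passed.

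Of the 7 genes matched by the rule but without a complete spot, GAS6, the ligand of AXL, FGF1 and NTRK3 had no value on any array. INSR, the insulin receptor, had no value on the Cy3 array. Its 2 spots gave 2.25 and 3.58 on the array of extraction 1, against 0.13 and −0.08 in the same dye in extraction 2, so the extractions did not agree within the spread of the spots. NTRK3-AS1 gave between 0.21 and 0.27 on the Cy5 arrays. EPHB6 had values between −0.03 and 0.34 and MST1L between −0.01 and 0.02 on the arrays where they were measured.

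Downstream of the receptors, 1 of 35 measured adaptor, Ras and feedback inhibitor genes rose and 1 fell, which is 5.71% against 9.19% of all named genes, with a list median of −0.02. SPRY2, a feedback inhibitor that receptor signalling induces, was at 1.99 ± 0.09, with arrays between 1.91 and 2.03 and an adjusted p of 0.0194. GAB1, the docking protein that binds activated MET, was at −1.36 ± 0.10, with arrays at −1.26, −1.38 and −1.56 and an adjusted p of 0.0201. SPRY2 and GAB1 kept their calls in 8 of 9 alternatives each and lost them with scaled arrays, at 0.0539 and 0.0605. Their adjusted p-values over the 9 ran from 0.0075 to 0.0539 and from 0.0084 to 0.0605.

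Of 12 measured co-receptors and shedding proteases, 2 rose and none fell, which is 16.7% against 9.19% of all named genes. The same 2 were at an unadjusted p under 0.05, against a share of 35.6% over all named genes, and the list median was 0.10. GPC3, a heparan sulfate proteoglycan at the cell surface, was at 2.14 ± 0.10, with arrays at 2.26, 2.36 and 1.69 and an adjusted p of 0.0194. CD44, whose variant forms present heparin-binding growth factors, was at 0.96 ± 0.09, with an adjusted p of 0.0247. With scaled arrays CD44 lost its call, at 0.0539, as it did at 0.0584 when extraction 2 was read from its Cy3 array alone, within a range of 0.0103 to 0.0584. GPC3 lost its call with scaled arrays, at 0.0505, and kept it in the other 8 of 9 alternatives, down to 0.0075. ADAM17 and ADAM10, the proteases that release EGF family ligands such as EREG and HBEGF, were at 0.02 and 0.05.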

How the data were processed

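Log2 ratios of E47 over control were used as the authors deposited them, 1 column per 2-colour array of human cDNA clones. Neither labels nor headers name a background correction, normalization, spot filter, log base or direction. Column medians were −0.00506, 0.00266 and 7.67e-04. Base 10 does not hold because the largest value, 7.80, is above 4.82, the log10 of a 16-bit range. Columns correlated positively, dye swap included, so no sign was turned. Of 27648 spots, 17488 carried 1 gene symbol, 654 several and 9506 none in the platform annotation. The 23275 spots with a value on every array were averaged per gene. Unnamed spots were kept singly. The dye swap was averaged, and limma 3.58.1 (lmFit, then eBayes, in R 4.3.3) tested 14008 features against 0, with Benjamini-Hochberg adjustment at 0.05, 1 residual and 2.71 prior degrees of freedom. The script was tested on simulated data. Genes were named where they passed, were the highest or lowest of their family, or matched the rule by name only; further genes were named after their values were seen. The members and lists were chosen with earlier results of these data known. Protein and promoter sequences were not used here. Alternatives changed the arrays, dye term, centring, scaling, spot summary, spot filter, eBayes setting, features tested and log base. Figures were drawn with matplotlib 3.10.9.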

Additional observations from a re-analysis of the deposited data

How the results depend on the processing

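The 7 genes past the limma test became 2 (2.53%) with scaled arrays, 4 (5.06%) with incomplete spots kept, and 14 (17.7%) when the 5508 named genes were tested alone, and ran from 1 (1.27%) to 13 (16.5%) as the Cy5 or the Cy3 array of extraction 2 was left out. In the same order, the shares of all named genes were 1.23%, 6.34%, 21.3%, 1.98% and 16.7%. The dye term, median centring, median over spots, robust eBayes and clone fits gave between 5 and 10. Scaled arrays called 68 named genes in all, against 506, and left FGFBP1 and PDGFC. The downstream list gave 4 genes without the Cy3 array, 5 with named genes alone and 0 with scaled arrays in limma, where 12 had an unadjusted p under 0.05. The co-receptor list gave 1 gene without the Cy5 array and 0 with scaled arrays, where 2 had an unadjusted p under 0.05. The median of the 79 genes was −0.0187 with the median over spots and −0.0684 with incomplete spots kept. It was a log2 ratio of −0.0791 if the deposited values were natural logarithms. As arrays or extractions were left out, it lay between −0.0841 and −0.0227. EGFLAM, near 0, was at −0.0227 without the Cy5 array and 0.0194 without the Cy3 array of extraction 2, and its extractions differed in sign. None of the other genes chosen by the naming rule changed direction under any alternative run. With 1 extraction left out no residual degree of freedom remained, so such values carry no test. No paired analysis was possible because there is 1 group. Signal over background was not used here.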
